A study of Mus musculus with 31 samples.

Results

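The genes described are the voltage-gated and potassium channel genes of the mouse, 117 in all. A gene was taken from the hippocampal table of 48795 genes when its symbol began with Kcn, with Scn and a digit, or with Cacn, and when at least 10 reads were counted on it in at least 6 of the 13 hippocampal libraries. Symbols that end in -ps or os were left out, and the noncoding antisense transcripts *Kcnmb4os2* and *Kcnq1ot1* met the rule and are among the 117. Of 137 genes with such a symbol, 20 fell below the count minimum and are not described further, and all 117 that remained also passed the low-count filter of the test. The rule did not use the change of a gene between *P301S* and non-transgenic mice. Its count minimum was taken over the libraries of both groups, so the level in *P301S* mice entered it. The rule was chosen with earlier results of these data known.

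Voltage-gated sodium channels carry the upstroke of the action potential, voltage-gated calcium channels couple depolarization to transmitter release and to signalling in the cell, and potassium channels repolarize the membrane and set its resting potential. Each channel is built from pore-forming subunits and from auxiliary subunits, which alter its gating or its delivery to the membrane. In the hippocampus the subunits are divided among dentate granule cells, pyramidal cells and fast-spiking interneurons. Some of them belong to glia, such as the inward rectifier *Kcnj10* of astrocytes, and some to the choroid plexus, such as *Kcnj13*.

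The study set hippocampi of *P301S* mice, a transgenic line whose neurons carry P301S mutant human tau, beside those of non-transgenic (Ntg) mice, all at 8 to 9 months. Of the 7 Ntg mice 3 were female, and of the 6 *P301S* mice likewise 3, with 1 library per mouse, and the *Cgas* genotype of these mice is not given in the labels. Primary microglia of *Cgas* wild-type (WT) and *Cgas*-/- mice were treated with vehicle, tau or HT-DNA, 3 libraries in each of the 6 groups. *Cgas* encodes the enzyme that senses DNA in the cytosol and starts the interferon response, and HT-DNA is herring testis DNA. The microglia came from pups, and the study describes the libraries of a group as independent biological samples.

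Between 25953296 and 35779977 reads per hippocampus and between 17037459 and 25174764 per microglial library were counted on genes. *Mapt*, the tau gene, had 997 ± 88.5 normalized CPM (counts scaled by library size; SD, n = 6) in *P301S* and 572 ± 46.9 (n = 7) in Ntg hippocampi, and the groups did not overlap. The gene *Cgas* had 18.8 to 44.3 normalized CPM in the WT microglial libraries and 3.76 to 7.45 in the *Cgas*-/- libraries. Several hippocampi stood apart in the levels of cell type markers. The summed level of 5 dentate granule markers was 479 normalized CPM in *P301S* mouse 63 and 148 to 358 in the other 5 *P301S* mice, and 4 CA1 markers summed to 321 in mouse 63 and 491 to 870 in the others. The summed level of 8 choroid plexus markers ran from 104 in *P301S* mouse 43 to 5616 in *P301S* mouse 77, and from 449 to 3924 in Ntg mice. Markers of disease-associated microglia summed to 97.6 to 128 in Ntg mice, to 78.9 in mouse 43 and 125 in mouse 63, and to 172 to 331 in the other 4 *P301S* mice.

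The first comparison asks which channel genes differ between *P301S* and Ntg hippocampi. None of the 117 genes passed an adjusted p of 0.05 (edgeR's quasi-likelihood test, Benjamini-Hochberg over 16453 genes), where 1.39% of all genes tested were higher and 0.122% lower in *P301S*, or 1.32% and 0.0365% with a log2 fold change beyond 0.5. The unadjusted p was under 0.05 for 13 channel genes with a higher and 16 with a lower mean in *P301S*, which are 11.1% and 13.7% of the 117, beside 9.79% and 6.09% of all genes tested. No channel gene had groups that did not overlap, which 0.438% of all genes showed upward and 0.17% downward. The median log2 fold change of the channel genes was -0.05, beside 0.0013 over all genes, with 68 of the 117 below 0. Neuronal marker lists did not all move in 1 direction between these groups. The summed level of 5 excitatory neuron markers was 7614 to 11194 normalized CPM in Ntg and 5242 to 7510 in *P301S* mice, which do not overlap, with 3 of 5 lower at an unadjusted p under 0.05. The dentate granule markers had a median log2 fold change of -0.56, with 2 of 5 lower. The 8 general neuronal markers summed to 6570 to 8825 in Ntg and 5762 to 8248 in *P301S* mice, which overlap, with 1 of 8 lower. CA1 and CA3 markers had medians of -0.34 and -0.33. Interneuron markers had a median of 0.16, with 1 of 7 higher, and neocortical markers one of 0.35, with 1 of 4 higher. No marker of these neuronal lists passed an adjusted p of 0.05. Oligodendrocyte markers had a median of 0.43, with 5 of 6 higher. The part of these lists in the channel gene values was not tested. The Wald test of DESeq2 called 2 channel genes higher (*Kcnk6* and *Kcne1l*) and 4 lower (*Kcng2*, *Cacnb1*, *Cacna2d1* and *Kcnab2*), where it called 4.24% of all genes higher and 1.3% lower.

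The 13 mice were not alike in what they contributed to these counts. Without *P301S* mouse 43, edgeR called 2 channel genes higher and 3 lower, beside 4.53% and 1.18% of all genes. Without mouse 63 it called 2 higher and 1 lower, beside 3.51% and 0.657%. Without mouse 77 it called 2 higher and 5 lower, beside 1.99% and 0.803%. Leaving out any of the other 10 mice gave no call. Among unadjusted p-values, the 13 higher genes became 8 without Ntg mouse 46, and the 16 lower genes became 8 or 9 without Ntg mouse 46 or *P301S* mouse 29, 36 or 65. The share of all genes at an unadjusted p was not worked out for these fits.

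**Figure D1:**
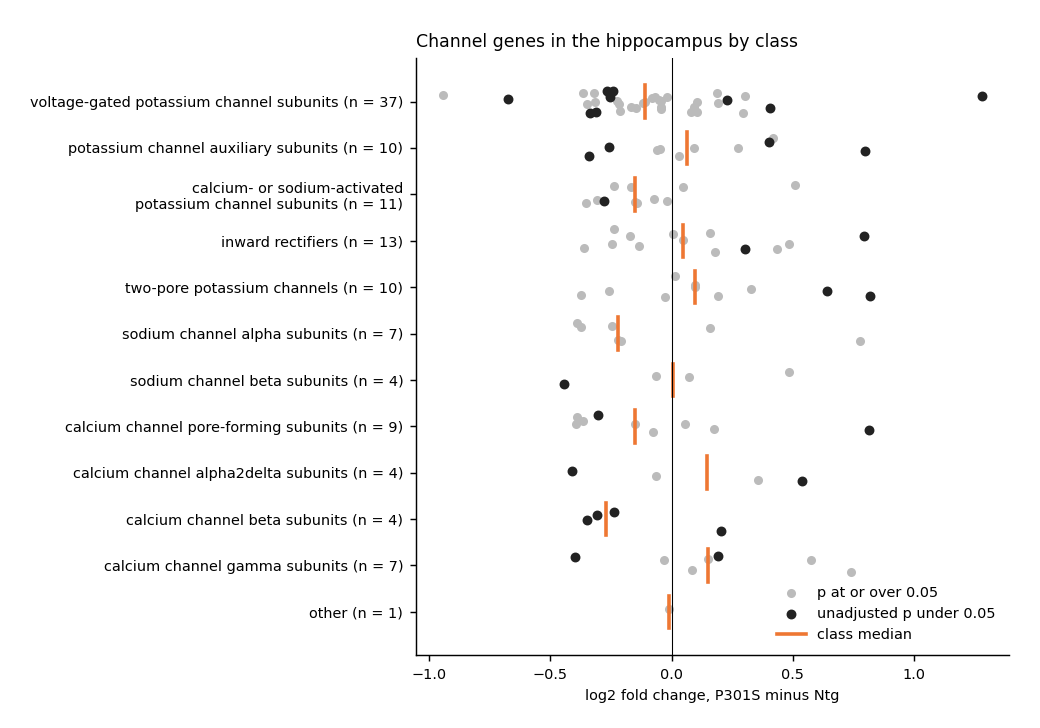
Log2 fold change of each of the 117 channel genes (horizontal axis, *P301S* minus Ntg) by class (vertical axis), with black points for an unadjusted p under 0.05 and orange bars for class medians. Points lie on both sides of 0 in every class of more than 1 gene, from -0.94 to 1.28, and no gene passed an adjusted p of 0.05.

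Voltage-gated potassium channel subunits were the largest class, with 37 genes. Their median log2 fold change was -0.11, with 26 below 0, and 3 had a higher and 6 a lower mean at an unadjusted p under 0.05. The shares over all genes tested were 9.79% and 6.09%, here and beside the counts of each class below. *Kcng2*, a silent Kv6 subunit that joins Kv2 channels, had 15.4, 19.0 and 26.1 normalized CPM (lowest, median and highest) in Ntg mice and 7.47, 11.7 and 19.4 in *P301S* mice. Of the *P301S* mice, 5 lay below every Ntg mouse, and mouse 63 lay within the Ntg range. Its log2 fold change was -0.67 ± 0.18 (SE, adjusted p = 0.0681), and -0.85 without mouse 63, with an adjusted p of 0.00662. An exon of *Kcng2* overlaps another gene on the opposite strand, and whether reads were counted by strand is not given in the sources used here.

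Members of the Kv3 family, which let neurons fire at high rates, differed from each other. *Kcnc2* (Kv3.2, of interneurons) had 87.5, 110 and 122 normalized CPM in Ntg and 75.6, 89.7 and 106 in *P301S* mice. Here 3 of the 6 *P301S* mice lay below every Ntg mouse, and the log2 fold change was -0.26 ± 0.09 (adjusted p = 0.149). Without mouse 43 it was -0.32, with an adjusted p of 0.0465. *Kcnc1* (Kv3.1) had 162, 180 and 215 in Ntg and 146, 186 and 344 in *P301S* mice. The 344 was mouse 63, and the log2 fold change of 0.19 ± 0.16 (adjusted p = 0.629) became -0.012 without it. *Kcng4*, another silent subunit, had 6.94, 10.1 and 12.7 in Ntg and 8.51, 11.4 and 86.4 in *P301S* mice. The 86.4 was again mouse 63, so that the log2 fold change of 1.28 ± 0.50 (adjusted p = 0.213) became 0.18 without that mouse.

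Other genes of this class with an unadjusted p under 0.05 were *Kcna4*, *Kcnd3* and *Kcnv1*, with lower means in *P301S*, and *Kcna6* and *Kcns1*, with higher means. These 5, like every gene named here because a count of 5 or fewer fell on it, were chosen after their values were seen. Their log2 fold changes ran from -0.31 in *Kcna4* to 0.41 in *Kcns1*, with adjusted p from 0.234 to 0.284, and *Kcna4* had an adjusted p of 0.0301 without mouse 77.

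Among the 10 auxiliary potassium channel subunits, 2 had a higher and 2 a lower mean at an unadjusted p under 0.05. *Kcne1l* encodes the single-pass subunit KCNE5, a partner of Kv7 channels. It had 3.02, 3.69 and 4.51 normalized CPM in Ntg and 3.58, 6.98 and 10.1 in *P301S* mice. Mice 43 and 63 lay inside the Ntg range, and the other 4 *P301S* mice lay above it. The log2 fold change was 0.80 ± 0.21 (adjusted p = 0.0746). It was 0.92 without mouse 43 (adjusted p = 0.0119) and 0.90 without mouse 63 (adjusted p = 0.0281). *Kcnip1*, a KChIP subunit of Kv4 channels, had 16.3, 22.7 and 26.9 in Ntg and 20.5, 28.8 and 36.5 in *P301S* mice. Its log2 fold change was 0.40 ± 0.14 (adjusted p = 0.164).

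*Kcnab2*, the Kvβ2 subunit of Kv1 channels in axons, was counted at 759, 832 and 1039 normalized CPM in Ntg and at 611, 710 and 787 in *P301S* mice. Here 4 of 6 *P301S* mice lay below the Ntg range, and the log2 fold change was -0.26 ± 0.08 (adjusted p = 0.137). *Kcnip2*, the KChIP subunit of pyramidal cell dendrites, had 144, 172 and 238 in Ntg and 99.4, 137 and 170 in *P301S* mice. Its log2 fold change was -0.34 ± 0.14 (adjusted p = 0.258). *Kcne2*, a choroid plexus subunit, had 2.2 to 16.9 in Ntg and 0.666 to 32.4 in *P301S* mice. The log2 fold change of *Kcne2* was 0.03 ± 0.74, and it turned to -0.44 with sex in the model and to -0.92 without mouse 77.

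The class of calcium- or sodium-activated potassium channels, which link firing to the ions it lets in, held 11 genes, 1 of them the antisense transcript *Kcnmb4os2*. Its median log2 fold change was -0.15, with 9 of 11 below 0, *Kcnmb4os2* included at -0.020. One of them, *Kcnn2* of the SK channels, had an unadjusted p under 0.05. It had 43.8, 48.1 and 70.4 normalized CPM in Ntg and 34.4, 44.8 and 46.9 in *P301S* mice, at a log2 fold change of -0.28 (adjusted p = 0.228). Those values overlapped.

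Of the 13 inward rectifiers, which hold cells near their resting potential, 2 had a higher mean at an unadjusted p under 0.05 and none a lower one. *Kcnj10* (Kir4.1), the channel by which astrocytes clear potassium, had 222, 260 and 310 normalized CPM in Ntg and 261, 305 and 430 in *P301S* mice. Mice 29 and 65 lay above every Ntg mouse, and the log2 fold change was 0.30 ± 0.12 (adjusted p = 0.206). The summed level of 7 astrocyte markers, *Kcnj10* not among them, was 4606 to 5434 in Ntg mice and 4880 to 8608 in *P301S* mice, with 5 of 7 markers higher at an unadjusted p under 0.05. More astrocyte RNA in the tissue and more RNA per astrocyte cannot be told apart in bulk samples, here and for the markers of other cells below. *Kcnj16*, its astrocyte partner Kir5.1, had 25 to 38.2 in Ntg and 17.2 to 34.9 in *P301S* mice, at a log2 fold change of -0.13 ± 0.15 (adjusted p = 0.741).

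*Kcnj12* was the other inward rectifier with an unadjusted p under 0.05, at 4.91 to 10.7 normalized CPM in Ntg and 4.30 to 28.1 in *P301S* mice (log2 fold change 0.79, adjusted p = 0.251). The 28.1 was mouse 63, and the log2 fold change was 0.39 without it (adjusted p = 0.448). *Kcnj9*, a GIRK subunit opened by G proteins, had 92.0, 120 and 136 in Ntg and 83.2, 128 and 201 in *P301S* mice. The 201 was mouse 43, and the log2 fold change of 0.16 ± 0.18 (adjusted p = 0.748) became -0.0063 without it. *Kcnj8*, a pore subunit of the ATP-sensitive channel in mural cells, had 1.95 to 3.72 in Ntg and 2.80 to 3.52 in *P301S* mice, at a log2 fold change of 0.18 ± 0.14 (adjusted p = 0.618). *Kcnj13*, which encodes Kir7.1 of the choroid plexus, had 2.71 to 22.4 in Ntg and 0.666 to 35.6 in *P301S* mice, a spread that left its log2 fold change at -0.24 ± 0.76 (adjusted p = 0.929).

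Of the 10 two-pore potassium channels, which carry background current, 2 had a higher mean at an unadjusted p under 0.05. *Kcnk6* (TWIK2) had the smallest p-value of all the channel genes. It is a channel of macrophages and microglia, in which it passes potassium out of the cell during inflammasome activation. *Kcnk6* had 2.46, 3.15 and 4.41 normalized CPM in Ntg and 3.53, 5.83 and 8.59 in *P301S* mice. Mice 43 and 63 lay within the Ntg range and the other 4 above it. The log2 fold change was 0.82 ± 0.19 (adjusted p = 0.0514), and the adjusted p ran from 0.0118 to 0.136 as each mouse was left out.

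*Kcnk13* (THIK-1), the main background potassium channel of microglia, had 5.57, 7.44 and 9.99 normalized CPM in Ntg and 6.99, 10.1 and 11.9 in *P301S* mice. Mice 29, 36 and 77 lay above every Ntg mouse, and the log2 fold change was 0.33 ± 0.16 (adjusted p = 0.350). The summed level of 7 homeostatic microglial markers was 326 to 403 in Ntg mice. It was 319 in mouse 43, 366 in mouse 63 and 514 to 715 in the other 4 *P301S* mice. The part of the microglial markers in the *Kcnk6* values was not tested. The other channel of this class with an unadjusted p under 0.05 was *Kcnk3* (TASK1), with 13.8 to 22.3 normalized CPM in Ntg and 10.7 to 48.7 in *P301S* mice (log2 fold change 0.64, adjusted p = 0.222). It was 0.81 without mouse 77 (adjusted p = 0.0417) and 0.41 without mouse 63 (adjusted p = 0.346).

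**Figure D2:**
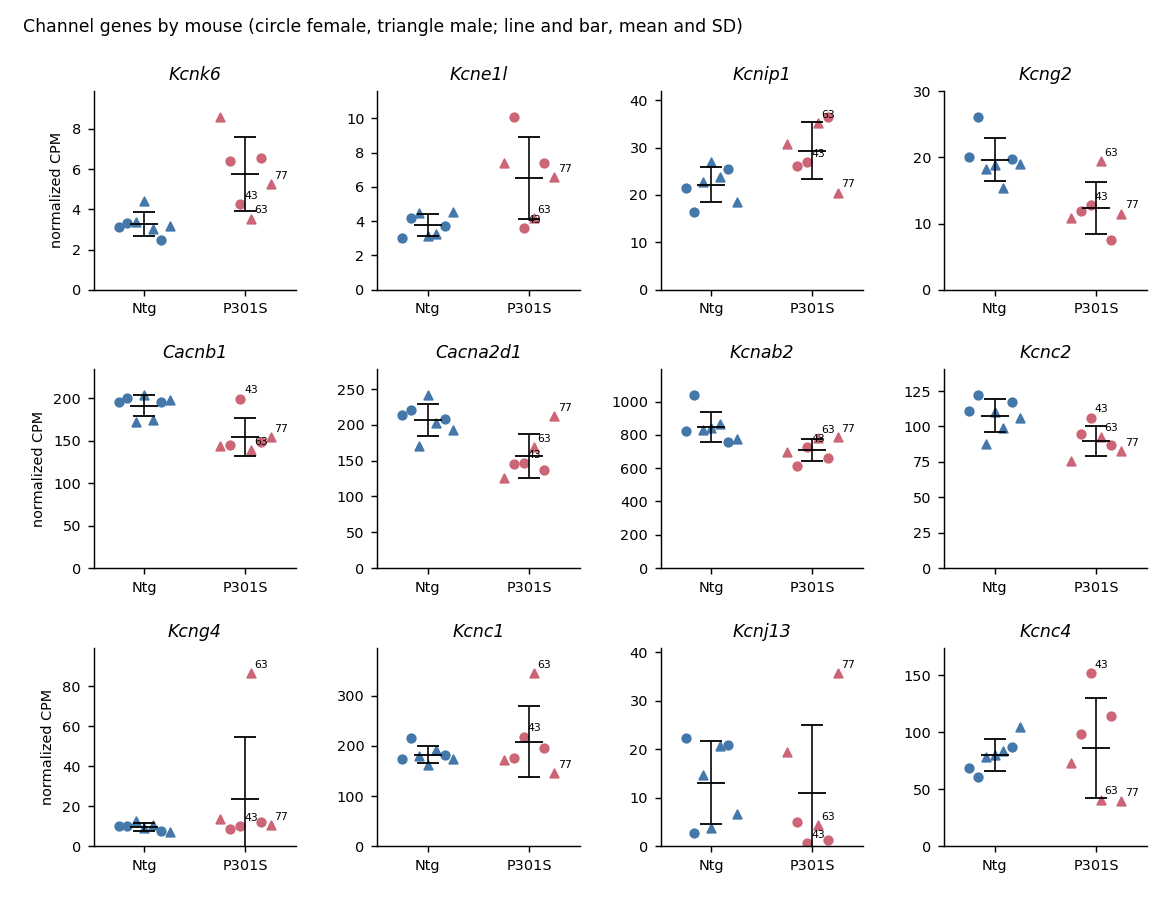
Normalized CPM of 12 channel genes (vertical axes, from 0) in each Ntg and *P301S* mouse, with circles for females, triangles for males, and the mean and SD of each group as a line and bar. *P301S* mice 43, 63 and 77 are numbered: 43 and 63 lie among the Ntg mice for *Kcnk6* and *Kcne1l*, and 63 stands alone at 86.4 for *Kcng4* and 344 for *Kcnc1*.

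The sodium channels numbered 7 alpha and 4 beta subunits. The alpha subunits, which form the pore, had a median log2 fold change of -0.22, with 5 of 7 below 0 and none at an unadjusted p under 0.05. *Scn1a* (Nav1.1), the sodium channel of fast-spiking interneurons, had 87.1, 97.8 and 112 normalized CPM in Ntg and 98.5, 108 and 143 in *P301S* mice. Its log2 fold change was 0.16 ± 0.09 (adjusted p = 0.439), and 0.080 without mouse 63. Of the beta subunits, which modulate and anchor the pore, 1 had an unadjusted p under 0.05. That was *Scn3b*, with 220, 318 and 380 in Ntg and 180, 202 and 402 in *P301S* mice. The 402 was mouse 77, above every Ntg mouse, and the log2 fold change of -0.44 (adjusted p = 0.257) was -0.67 without it, with an adjusted p of 0.0272.

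The calcium channel genes were 9 pore-forming, 4 alpha2delta, 4 beta and 7 gamma subunits. At an unadjusted p under 0.05, 4 of these 24 had a higher and 6 a lower mean in *P301S*, beside 9.79% and 6.09% of all genes tested. The pore-forming subunits had a median log2 fold change of -0.15. *Cacna1e* (Cav2.3, R-type current) had 221, 297 and 434 normalized CPM in Ntg and 156, 220 and 349 in *P301S* mice, at a log2 fold change of -0.39 ± 0.19 (adjusted p = 0.324). *Cacna1b* (Cav2.2, the N-type channel of synaptic terminals) had 93.2, 116 and 156 in Ntg and 73.7, 94.5 and 119 in *P301S* mice (log2 fold change -0.30, adjusted p = 0.241). *Cacna1s*, best known from skeletal muscle, had 0.351 to 0.826 in Ntg and 0.456 to 1.65 in *P301S* mice, and its log2 fold change was 0.81 ± 0.30 (adjusted p = 0.191).

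All 4 beta subunits, which carry the pore to the membrane, had an unadjusted p under 0.05, lower for 3 and higher for 1. None of them passed an adjusted p of 0.05. *Cacnb1* had 172, 196 and 204 normalized CPM in Ntg and 139, 147 and 199 in *P301S* mice. The 199 was mouse 43, and the other 5 *P301S* mice lay below every Ntg mouse. The log2 fold change was -0.31 ± 0.08 (adjusted p = 0.0799), and -0.39 without mouse 43, with an adjusted p of 0.00237. *Cacnb2* had 62.3, 68.7 and 90.4 in Ntg and 44.4, 51.9 and 75.2 in *P301S* mice, at -0.35 ± 0.13 (adjusted p = 0.208). *Cacnb3* had 225, 256 and 293 in Ntg and 169, 211 and 282 in *P301S* mice, at -0.24 (adjusted p = 0.297). *Cacnb4*, the member with the higher mean, had 117, 127 and 172 in Ntg and 147, 148 and 187 in *P301S* mice, at 0.20 (adjusted p = 0.310).

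The alpha2delta subunits, which hold calcium channels at release sites, split in direction. *Cacna2d1* had 171, 208 and 241 normalized CPM in Ntg and 126, 146 and 212 in *P301S* mice. The 212 was mouse 77, and the other 5 *P301S* mice lay below every Ntg mouse. Its log2 fold change was -0.41 ± 0.11 (adjusted p = 0.0827), and -0.52 without mouse 77, with an adjusted p of 0.0246. *Cacna2d2* had 31.5, 43.7 and 52.7 in Ntg and 34.7, 59.9 and 96.8 in *P301S* mice, at 0.54 ± 0.21 (adjusted p = 0.209).

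The gamma subunits are better known as partners of AMPA receptors than of calcium channels. *Cacng4* had 24.5, 26.1 and 30.0 normalized CPM in Ntg and 28.1, 30.1 and 33.9 in *P301S* mice, at a log2 fold change of 0.19 ± 0.07 (adjusted p = 0.166). *Cacng8*, the gamma subunit typical of hippocampal synapses, had 81, 112 and 136 in Ntg and 61, 79.1 and 124 in *P301S* mice (log2 fold change -0.40, adjusted p = 0.257). *Cacng3* had 77.6, 96.1 and 107 in Ntg and 49.8, 93.4 and 115 in *P301S* mice. The 49.8 was mouse 63, and the log2 fold change of -0.03 ± 0.16 (adjusted p = 0.955) was 0.09 without it. The last gene of the 117, *Kcnq1ot1*, is a noncoding transcript antisense to *Kcnq1* and had a log2 fold change of -0.0093.

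A list of 30 genes that work beside these channels was measured in the same fit. It holds the HCN pacemaker channels, auxiliary subunits with other symbols, anchors of the axon initial segment and node, the sodium leak complex, calcium release channels and the proton channel. Of the 30, 1 passed an adjusted p of 0.05, upward, and none downward, beside 1.39% and 0.122% of all genes tested. It was *Hvcn1*, the voltage-gated proton channel of phagocytes, with 3.59 ± 0.603 normalized CPM in Ntg (SD, n = 7) and 13 ± 8.09 in *P301S* mice (n = 6). Its log2 fold change was 1.86 ± 0.37 (adjusted p = 0.0303). Mouse 43, at 3.86, lay within the Ntg range of 2.73 to 4.46, and mouse 63, at 4.75, just above it. The other *P301S* mice had 9.09 to 21.4. The part of the microglial markers in the *Hvcn1* values was not tested. At an unadjusted p under 0.05, 3 had a higher and 6 a lower mean, beside 9.79% and 6.09% of all genes tested. The median of the 30 was -0.10.

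The coefficient of variation of the channel genes over mice had a median of 28.8% in *P301S* and 17.9% in Ntg, beside 18% and 12.9% over all genes tested. It was larger in *P301S* for 97 of the 117 genes, or 82.9%, beside 75.4% of all genes tested. Mouse 63 held the highest value of the 6 *P301S* mice for 36 genes and the lowest for 28. Of 58 groups of mice examined, 6 had a single mouse far from the others. In *P301S*, mouse 63 was that mouse for *Kcng4* and *Kcnc1*. *Kcna1* (Kv1.1 of axons) had 118 in mouse 63 and 28.2 to 80.2 in the other 5. *Kcna1*, *Kcnc4*, *Kcnt2* and *Kcnj6* were chosen after their values were seen. The summed dentate, CA1 and neocortical marker levels of mouse 63 were also extreme, the last at 68.6 beside 77.2 to 188 in the other *P301S* mice, and their part in these values was not tested.

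*Kcnc4* (Kv3.4) ran the other way over the mice. It had 40.9 normalized CPM in mouse 63 and 39.8 in mouse 77, where the neocortical marker sum was lowest, and 152 in mouse 43, where that sum was highest among *P301S* mice. *Kcnj13* and *Kcne2* followed the choroid plexus list from mouse to mouse. The highest values of both, 35.6 and 32.4, were in mouse 77, which also had the highest choroid plexus sum. Their lowest, 0.666 for each, were in mouse 43, which had the lowest sum. Neither gene is in that list.

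**Figure D3:**
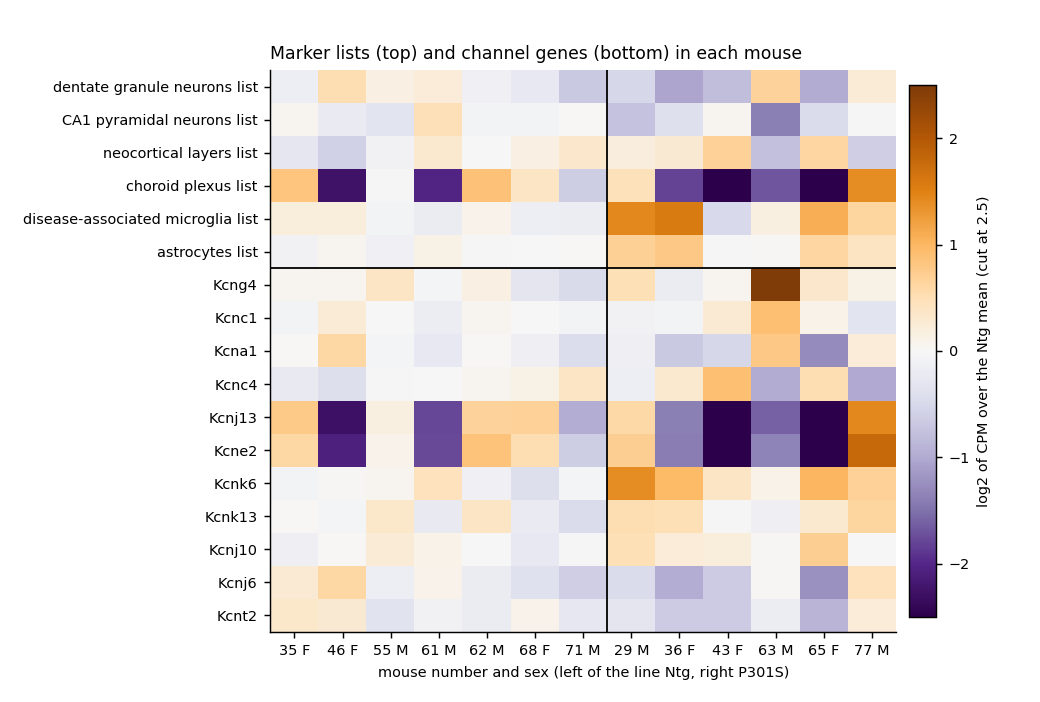
Summed marker lists (above the line) and single channel genes (below) in each of the 13 mice, as the log2 of normalized CPM over the Ntg mean, in colour from purple (lower) to orange (higher). *Kcng4* and *Kcnc1* are highest in mouse 63, and *Kcnj13* and *Kcne2* share the pattern of the choroid plexus list, from 104 in mouse 43 to 5616 in mouse 77.

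The next comparison asks whether the genotype difference of a channel gene differs between males and females. No channel gene passed an adjusted p of 0.05 for the interaction of sex with genotype, nor did any of the 16453 genes (percent called 0). At an unadjusted p under 0.05 there were 39 channel genes, 33.3% of the 117, beside 23.7% of all genes tested. In 28 of them the log2 fold change was the higher one in males, 23.9% beside 12.7% of all genes, and in 11 it was the higher one in females, 9.4% beside 11%. DESeq2 called 13 channel genes for the interaction, beside 6.64% of all genes. With edgeR, 24 were called without *P301S* mouse 29, beside 9.95% of all genes, and 1 without *P301S* mouse 36, beside 0.266%. Leaving out any other mouse gave no channel gene, beside at most 0.0184% of all genes. Within females 15 channel genes had a higher and 37 a lower mean at an unadjusted p under 0.05, beside 12.6% and 14.3% of all genes, and within males 7 and 9, beside 8.93% and 6.72%.

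The 4 channel genes with the smallest p-values for this interaction were *Kcnt2*, *Kcnc4*, *Kcnip2* and *Kcna1*. *Kcnt2*, a sodium-activated potassium channel, had a log2 fold change of -0.96 ± 0.14 in females (adjusted p = 0.0279) and 0.15 ± 0.13 in males (adjusted p = 0.587). It was the one channel gene called within a sex, in a comparison that called 0.164% of all genes in females and 0.0182% in males. The difference between the sexes was 1.12 ± 0.19, with an adjusted p of 0.0940. *Kcnt2* had 12.1 to 14.3 normalized CPM in the 3 *P301S* females and 18.3 to 26.3 in the 3 *P301S* males. *Kcnc4* had a log2 fold change of 0.76 in females and -0.76 in males, and *Kcna1* one of -0.98 in females and 0.52 in males (adjusted p of both interactions 0.104). *Kcnip2* had -0.79 in females and 0.05 in males (adjusted p = 0.104). *Kcnj6*, the GIRK2 gene, had -1.15 in females and 0.24 in males (adjusted p = 0.104).

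Among *P301S* mice, the sexes also differed in marker sums. The dentate granule marker sum was 148 to 176 normalized CPM in *P301S* females and 255 to 432 in Ntg females, which do not overlap, and 210 to 479 in *P301S* males and 190 to 356 in Ntg males. The choroid plexus sum was 104 to 614 in *P301S* females and 665 to 5616 in *P301S* males. In Ntg mice it was 449 to 3824 in females and 527 to 3924 in males, which overlap. In so few mice, sex and the cell mixture of the sample cannot be told apart.

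**Figure D4:**
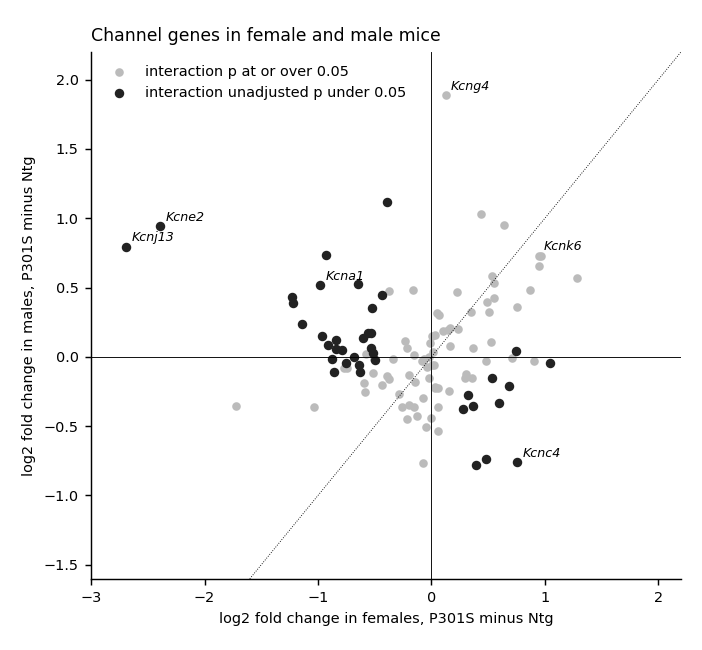
Log2 fold change of each channel gene in females (horizontal axis) and males (vertical axis), *P301S* minus Ntg, with black points for an unadjusted interaction p under 0.05 and a dotted line where both are equal. More black points lie left of the dotted line, where the male value is higher (28), than right of it (11), and none passed an adjusted p of 0.05.

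Microglia in culture express part of the set. Of the 117 channel genes, 26 passed the low-count filter in the 18 microglial libraries. The other 91 had at most 17 counts in any library, and 61 of them at most 3 in every library. In 8 genes every library had more than 100 counts. In these cultures 8 general neuronal markers summed to 0.417 to 2.58 normalized CPM and 5 excitatory neuron markers to 0.164 to 2.75. Other neuronal lists were higher, at 10.3 to 21.0 for dentate granule, 80.9 to 123 for CA1 and 21.4 to 82.3 for interneuron markers. The homeostatic microglial sum was 2010 to 3463. Among the 10 channel genes with the most reads in WT vehicle libraries were *Kcnj2*, *Cacna1a*, *Kcnab2*, *Kcnk6*, *Kcnk13*, *Cacna1d*, *Kcna3*, *Kcnj10* and *Cacnb3*, from 1855 down to 53.0 counts on average. This is an order of reads, and levels are not compared between genes.

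Tau changed 7 of the 26 channel genes in WT microglia at an adjusted p of 0.05, 2 upward and 5 downward, which are 7.69% and 19.2%, beside 15.8% and 12.2% of all 13675 genes tested. A log2 fold change beyond 1 was also reached by 2, both upward (*Kcnh7* and *Kcnab1*), beside 2.89% of all genes upward and 0.527% downward. The count without a minimum fold was added after the data were seen. *Kcnj2* (Kir2.1, an inward rectifier of resting microglia) fell from 82.4, 88.6 and 89.4 normalized CPM with vehicle to 66.5, 71.2 and 66.3 with tau. The groups did not overlap, and the log2 fold change was -0.35 ± 0.05 (adjusted p = 1.38e-06). *Cacna1a* (Cav2.1) fell from 68, 76.1 and 71.1 to 51.5, 54.1 and 53.2, by 0.44 on the log2 scale (adjusted p = 1.26e-06).

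The other 3 falls with tau were smaller. *Kcnab2* had a log2 fold change of -0.25 ± 0.05 (adjusted p = 0.000622), *Kcnk13* one of -0.28 ± 0.07 (adjusted p = 0.00389) and *Cacna1d* one of -0.24 ± 0.08 (adjusted p = 0.0170). The call for *Cacna1d* was lost without tau library 3 (adjusted p = 0.0897) and without vehicle library 1 (adjusted p = 0.0694). The 2 genes that rose lie at low counts. *Kcnab1*, the Kvβ1 subunit, had 16, 11 and 7 counts with vehicle and 25, 15 and 30 with tau, a log2 fold change of 1.18 ± 0.43 (adjusted p = 0.0399). *Kcnh7*, an Erg channel, had 18, 11 and 9 counts with vehicle and 31, 21 and 39 with tau, a log2 fold change of 1.39 ± 0.44 (adjusted p = 0.0181). Either call was lost without tau library 1 or 3 or without vehicle library 2 or 3, where *Kcnab1* had adjusted p-values of 0.120, 0.193, 0.124 and 0.144 and *Kcnh7* of 0.0528, 0.105, 0.0708 and 0.0615. An exon of *Kcnh7* overlaps *Gca* on the opposite strand, and *Gca* rose by 1.51 ± 0.11 with tau and by 1.79 ± 0.11 with HT-DNA (adjusted p = 1.65e-11 and 1.06e-13). The part of *Gca* reads in the *Kcnh7* values was not tested.

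HT-DNA changed 10 of the 26 channel genes in WT microglia at an adjusted p of 0.05, 1 upward and 9 downward, which are 3.85% and 34.6%, beside 22.8% and 24.7% of all genes tested. Of these, 1 rise (*Kcnab1*) and 1 fall (*Kcnd1*) were beyond a log2 fold change of 1, beside 5.29% and 2.79% of all genes. The count of rises became 2 or 3 without any 1 of 16 of the 18 libraries and stayed at 1 without HT-DNA library 2 or 3. In those 16 fits *Cacnb2* was called, a gene that did not pass the low-count filter with all 18 libraries. Its highest counts were those with HT-DNA in WT cells. The filter thus admitted it through the group then tested, and its adjusted p is no support for a rise. It had 2, 1 and 1 counts with vehicle and 6, 13 and 17 with HT-DNA (log2 fold change 3.06 to 3.60, adjusted p = 0.000577 to 0.00801). In the same libraries 5 endothelial markers summed to 87.2 to 98.3 normalized CPM with vehicle and 276 to 279 with HT-DNA, and 6 oligodendrocyte markers to 124 to 132 and 202.5 to 225, and their part in these counts was not tested. *Kcnk13* fell from 40.2, 42.6 and 42.0 normalized CPM with vehicle to 22.4, 20.7 and 24.6, a log2 fold change of -0.88 ± 0.08 (adjusted p = 1.41e-10). *Kcnj2* fell to 51.3, 49.2 and 49.1, a log2 fold change of -0.80 ± 0.05 (adjusted p = 1.25e-13). *Kcnab2* fell from 65.8, 67.9 and 62.2 to 45.1, 45.6 and 41.5, a log2 fold change of -0.57 ± 0.06 (adjusted p = 1.58e-09). In none of these 3 did the HT-DNA and vehicle libraries overlap.

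*Kcnj10* fell from 4.56, 3.59 and 6.21 to 2.66, 2.48 and 2.62 with HT-DNA (log2 fold change -0.88 ± 0.25, adjusted p = 0.00469). The astrocyte marker sum, which lacks *Kcnj10*, was 7.31 to 7.72 with vehicle and 12.7 to 15.5 with HT-DNA. The part of the astrocyte markers in the *Kcnj10* values was not tested. *Cacna1a* fell by 0.20 on the log2 scale (adjusted p = 0.00586), to 68.4, 59.5 and 58.9, values that overlap the vehicle libraries, and *Kcna3* (Kv1.3, a target of blockers in neuroinflammation) by 0.20 (adjusted p = 0.0431). The call for *Kcna3* was lost under several other settings given in the closing section. *Cacnb1* had 36, 35 and 38 counts with vehicle and 11, 30 and 13 with HT-DNA, a log2 fold change of -0.80 ± 0.30 (adjusted p = 0.0286), a call lost without HT-DNA library 1 or 3 or vehicle library 3 (adjusted p = 0.162, 0.133 and 0.104). *Kcnd1*, a Kv4 pore, had 20, 10 and 10 counts with vehicle and 4, 1 and 4 with HT-DNA, a log2 fold change of -1.89 ± 0.60 (adjusted p = 0.0107). It lost the call without vehicle library 1 (adjusted p = 0.0742) or HT-DNA library 2 (adjusted p = 0.0682).

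*Kcnab1* rose with HT-DNA, from 0.709, 0.476 and 0.378 normalized CPM with vehicle to 1.47, 1.51 and 2.02. These are 27, 28 and 37 counts, and the log2 fold change was 1.65 ± 0.42 (adjusted p = 0.00172). The call held whichever of the 18 libraries was left out, with adjusted p-values of 0.00139 to 0.0137. *Kcnk13* and *Kcnj2*, the 2 genes that fell most clearly, moved with HT-DNA in the opposite direction to *Kcnab1*. For this reason the 250 bases before 2 start sites of *Kcnab1* and before the starts of these 2 genes are shown. They are from RefSeq (GRCm38.p6, plus strand, 5′ to 3′), for *Kcnab1* at chr3:64948962-64949211 and chr3:65187853-65188102, for *Kcnk13* at chr12:99964249-99964498 and for *Kcnj2* at chr11:111065914-111066163. RefSeq promoters were at hand for 85 of the 117 channel genes. Capitals mark 2 motifs, each read on both strands. One is the core of the interferon-stimulated response element, GAAA followed by any 2 bases and GAAA, and the other is CACGTG, an E-box. The *Kcnab1* starts shown are those with the response element core. The *Kcnab1* start left out, at chr3:65108764-65109013, has CACGTG and no such core. *Kcnj10*, which also fell with HT-DNA and is not shown, has neither motif before its start.
Kcnab1, upstream start: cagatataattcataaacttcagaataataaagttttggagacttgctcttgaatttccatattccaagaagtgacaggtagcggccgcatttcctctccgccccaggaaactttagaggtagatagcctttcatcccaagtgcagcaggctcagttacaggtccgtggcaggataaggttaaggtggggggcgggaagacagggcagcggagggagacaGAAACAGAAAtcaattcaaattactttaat
Kcnab1, downstream start: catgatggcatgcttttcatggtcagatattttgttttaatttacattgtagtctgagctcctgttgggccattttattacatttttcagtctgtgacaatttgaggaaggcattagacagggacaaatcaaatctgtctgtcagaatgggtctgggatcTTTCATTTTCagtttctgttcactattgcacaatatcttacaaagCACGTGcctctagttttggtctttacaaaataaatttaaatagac
Kcnk13: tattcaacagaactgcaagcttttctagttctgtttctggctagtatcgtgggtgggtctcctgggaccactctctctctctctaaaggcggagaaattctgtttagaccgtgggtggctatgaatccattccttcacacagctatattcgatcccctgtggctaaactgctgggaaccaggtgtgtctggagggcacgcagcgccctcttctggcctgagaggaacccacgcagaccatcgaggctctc
Kcnj2: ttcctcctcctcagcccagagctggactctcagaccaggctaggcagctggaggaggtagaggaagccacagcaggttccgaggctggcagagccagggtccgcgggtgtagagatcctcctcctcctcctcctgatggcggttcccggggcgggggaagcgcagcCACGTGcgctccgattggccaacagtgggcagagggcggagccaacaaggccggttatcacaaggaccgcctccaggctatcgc

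The 85 channel genes with a promoter at hand had 120 promoters. The response element core was found in 5 of these, before 2 of the 3 start sites of *Kcnab1* and before starts of *Kcnc2* and *Kcnj16*. It was in 2.98% of all 32851 promoters of this length. CACGTG was found in 5 of the 120, before starts of *Kcnab1*, *Kcne4*, *Kcnh4* and *Kcnj2*, and in 6.02% of all promoters. A consensus site of nuclear factor kappa B was in none of the 120 and in 0.14% of all. TTCAGCACC, part of a REST site, was found before *Kcnh6* and in 0.301% of all. The motifs were chosen with the values known, a match is a description of these letters, and which start site the microglia used was not determined.

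In *Cgas*-/- microglia, tau lowered 2 of the 26 channel genes at an adjusted p of 0.05, 7.69% beside 5.48% of all genes, and raised none, beside 11.2%. *Kcnj2* fell from 84.9, 80.8 and 79.0 normalized CPM with vehicle to 66.9, 61.4 and 65.5, a log2 fold change of -0.34 ± 0.05 (adjusted p = 4.39e-06). *Cacna1a* fell from 44.6, 41.7 and 46.1 to 35.2, 36.3 and 37.6, a log2 fold change of -0.28 ± 0.06 (adjusted p = 0.00192). With HT-DNA, 1 of 26 was lower, 3.85% beside 0.278%, and none higher, beside 1.04%. It was again *Kcnj2*, with 68.9, 72.0 and 69.0 and a log2 fold change of -0.22 ± 0.05 (adjusted p = 0.0174), a call lost without vehicle library 1 (adjusted p = 0.126) or HT-DNA library 3 (adjusted p = 0.0875). No channel gene passed a log2 fold change of 1 with either treatment. Both treatments were set against the same vehicle libraries.

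Whether a response differed between the genotypes was tested by the interaction of treatment and genotype. For HT-DNA, 7 of the 26 channel genes passed an adjusted p of 0.05, all with the higher log2 fold change in *Cgas*-/- cells, 26.9% beside 17.4% of all genes, and none the other way, beside 16.6%. *Kcnk13* differed by 0.98 ± 0.10 (adjusted p = 1.55e-08), since *Cgas*-/- cells had 44.8, 44.9 and 41.7 normalized CPM with vehicle and 47.4, 51.5 and 41.8 with HT-DNA. *Kcnab2* differed by 0.64 ± 0.08 (adjusted p = 1.49e-07) and *Kcnj2* by 0.58 ± 0.07 (adjusted p = 1.44e-07). *Kcna3* and *Cacna1a* differed by 0.45 and 0.34, with adjusted p-values of 0.00251 and 0.00298. *Kcnj10* differed by 1.27 ± 0.41 (adjusted p = 0.0166), a call lost without WT vehicle library 3 (adjusted p = 0.0502), *Cgas*-/- vehicle library 3 (0.0574) or *Cgas*-/- HT-DNA library 3 (0.0766). The rise of *Kcnab1* differed by -1.15 ± 0.78 (adjusted p = 0.275), so a difference between the genotypes was not shown for it.

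For tau, 1 of the 26 passed the interaction test, upward, 3.85% beside 3.61% of all genes upward, and none downward, beside 3.31%. It was *Kcnab2*, with 69.7, 74.7 and 74.6 normalized CPM in *Cgas*-/- cells with vehicle and 80.6, 75.9 and 74.2 with tau. Its responses differed by 0.33 ± 0.08 (adjusted p = 0.00672). For *Kcnj2* the difference between the genotypes was 0.015 ± 0.07 (adjusted p = 0.944).

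The genotypes were also compared with vehicle alone, a comparison added after the data were seen that shares its libraries with the interactions. Of the 26 channel genes, 10 were lower and 2 higher in *Cgas*-/- than in WT cells at an adjusted p of 0.05, 38.5% and 7.69%, beside 27.3% and 24.7% of all genes. *Kcnj10* had 1.4, 0.99 and 0.792 normalized CPM in *Cgas*-/- cells, all below the WT libraries (log2 fold change -2.18 ± 0.28, adjusted p = 2.35e-07). The log2 fold change was -0.70 for *Cacna1a* (adjusted p = 1.63e-10), -0.68 for *Cacna1d* (adjusted p = 3.19e-08) and -0.66 for *Kcna3* (adjusted p = 8.78e-08). At low counts, *Kcnk3* had 12, 7 and 5 counts in WT libraries and 0 in each *Cgas*-/- library, which allows up to 3. Over all treatments, *Kcnk3* had at most 3 counts in a *Cgas*-/- library, *Scn3b* at most 8, *Cacna1c* at most 12 and *Kcnab1* at most 13. None of these 4 would have passed the low-count filter on *Cgas*-/- libraries alone. Their calls thus rest on the WT libraries that admitted them. Also at low counts, *Scn3b*, *Cacna1c* and *Kcnab1* were lower while *Kcnn3* was higher. Each of the last 4 calls was lost without at least 3 of the single libraries. *Kcnk6* and *Kcnab2* differed by -0.15 and 0.16 (adjusted p = 0.0318 and 0.0142), calls also lost without some single libraries. *Kcnk13* and *Kcnj2* had log2 fold changes of 0.07 (adjusted p = 0.426) and -0.09 (adjusted p = 0.121). With vehicle, the homeostatic microglial sum was 3220 to 3319 in WT and 2052 to 2173 in *Cgas*-/- cells. The endothelial sum was 87.2 to 98.3 and 20.6 to 24.9, the interneuron sum 69.2 to 82.3 and 26.2 to 28.5, and the oligodendrocyte sum 124 to 132 and 71 to 76. The part of these lists in the channel gene values was not tested.

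**Figure D5:**
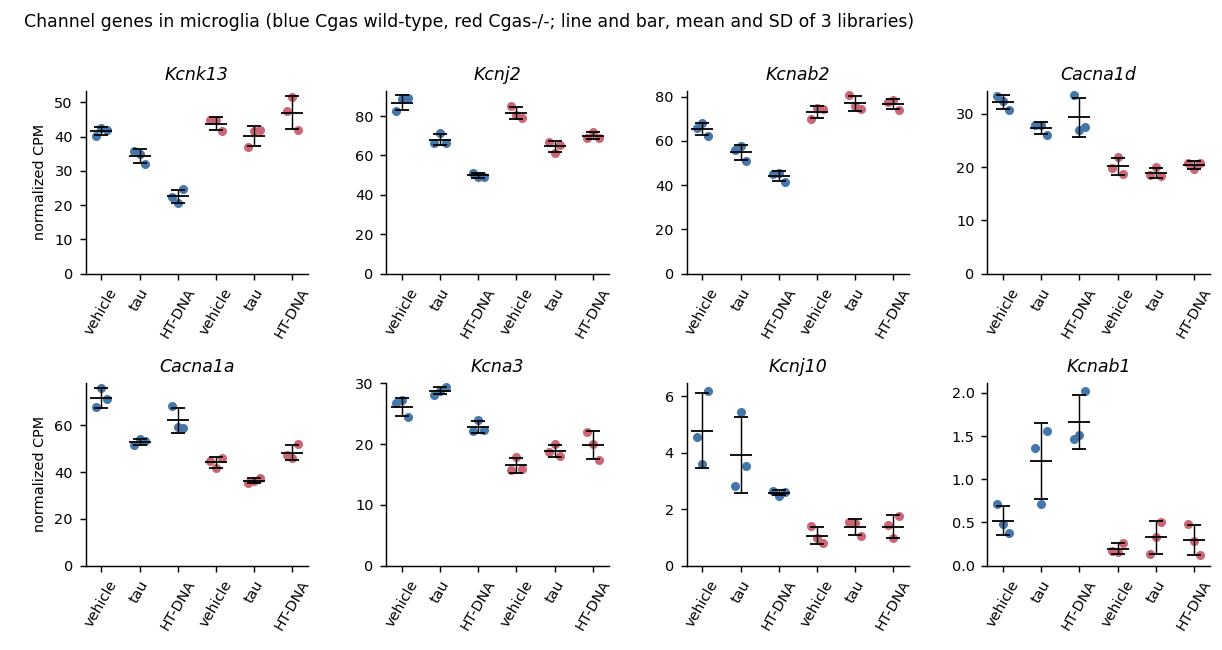
Normalized CPM of 8 channel genes (vertical axes, from 0) in each microglial library, blue for *Cgas* WT and red for *Cgas*-/- cells, with the mean and SD of 3 libraries as a line and bar. *Kcnk13*, *Kcnj2* and *Kcnab2* lie lower with HT-DNA in WT cells, and *Kcnk13* lies at 41.8 to 51.5 with HT-DNA in *Cgas*-/- cells.

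Gene positions are from GENCODE vM21 on GRCm38. *Kcnk6* lies on chromosome 7 from 29221926 to 29232515, *Kcng2* on chromosome 18 from 80294546 to 80364254, *Kcne1l* on chromosome X from 142304752 to 142306294 and *Cacnb1* on chromosome 11 from 98001508 to 98023034. *Cacna2d1* lies on chromosome 5 from 15934691 to 16374511, *Kcnab2* on chromosome 4 from 152390742 to 152477871, *Kcnk13* on chromosome 12 from 99964499 to 100062682 and *Kcnj2* on chromosome 11 from 111066164 to 111076821. Reads were counted over whole genes. Exon bases are shared with a gene on the opposite strand by *Kcng2*, *Cacna1a*, *Cacna1d*, *Cacna1s*, *Cacna2d2*, *Cacnb1*, *Cacnb2*, *Cacnb4*, *Kcna6*, *Kcnab1*, *Kcnd3*, *Kcnh7*, *Kcnj13*, *Kcnj6*, *Kcnj9*, *Kcnk3*, *Kcnn2* and *Kcnt2*, and with a gene on the same strand by *Kcnab2* and *Cacng8*, so these values may hold reads of both.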

How the data were processed

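RNA-seq was deposited as raw read counts per Ensembl gene, 1 table for 13 hippocampi and 1 for 18 microglial libraries. Per the labels, the libraries were made with a 3′ mRNA kit (the study's methods name another RNA kit and no library kit), and the submitters' processing notes name GRCm38, edgeR and limma. The aligner, the counting tool and the annotation are not given in the sources used here. The count of value columns left unused because they matched no sample was 0. Counts were tested here in edgeR 4.0.16 (R 4.3.3) by the quasi-likelihood test, after filterByExpr and TMM scaling, and p-values were adjusted by Benjamini-Hochberg over all genes tested. Normalized CPM are CPM of the TMM-scaled library size. The tests were tried on simulated counts first. Calls needed an adjusted p of 0.05, and the planned calls for treatments of microglia also a log2 fold change beyond 1. Where the call of a single gene is said to be held or lost, the adjusted p alone is meant.

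Genes are named where they passed a call, did not overlap between groups, were among the 15 smallest p-values in hippocampi or the 10 with the most reads in WT vehicle microglia, are named in the study's text, or mark another cell type, and some members counted above are not reported here by name. The members, lists and rules were chosen with earlier results of these data known. Alternatives were DESeq2 1.42.0, RLE scaling, no low-count filter, sex as a covariate, the replicate number as a block, a minimum log2 fold change of 0.5 in hippocampi, and each library left out. The microglial comparison of genotypes with vehicle, and treatment counts without a minimum fold, were added after the data were seen.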

Additional observations from a re-analysis of the deposited data

Results flagged for a closer look

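A single mouse lay far from the rest of its group (Dixon's criterion) in 6 of 58 groups examined. Chance flags about 1 in 20 single groups, which sets no expected number here, since the groups share 13 mice and some of the genes were chosen after their values were seen. Among *P301S* mice, the highest values were 86.4 normalized CPM of *Kcng4* and 344 of *Kcnc1*, both in mouse 63, and 199 of *Cacnb1* in mouse 43. Among Ntg mice, mouse 46 was the highest with 26.1 of *Kcng2*, 1040 of *Kcnab2* (rounded) and 103 of *Kcna1*. Mouse 46 also had the highest dentate granule marker sum of the Ntg mice, 432 normalized CPM beside 190 to 356 in the others.

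The response of microglia differed between *Cgas*-/- and WT cells, tested by the interaction. For HT-DNA the log2 fold change in *Cgas*-/- cells exceeded that in WT cells by 0.98 in *Kcnk13*, 0.58 in *Kcnj2*, 0.64 in *Kcnab2*, 0.45 in *Kcna3*, 0.34 in *Cacna1a* and 1.27 in *Kcnj10*. For tau it exceeded that in WT cells by 0.33 in *Kcnab2*.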

How the results depend on the processing

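In hippocampi, DESeq2 called 2 channel genes higher and 4 lower where edgeR called 0, and 13 for the interaction with sex. Without a low-count filter 2 passed that interaction. Leaving out 1 mouse gave 0 to 2 higher and 0 to 5 lower calls, 8 to 16 and 8 to 22 at an unadjusted p, and 0 to 24 for the interaction. Over left-out mice the interaction called 0% to 9.95% of all genes. No share over all genes was worked out without the filter, or for unadjusted p-values without a mouse. Those counts cannot be set against all genes. With sex as a covariate the log2 fold change turned to -0.44 for *Kcne2* and -0.040 for *Kcnc4*. Over left-out mice it ran from -0.92 to 0.27 for *Kcne2*, -1.08 to 0.012 for *Kcnj13*, -0.012 to 0.27 for *Kcnc1*, -0.0063 to 0.26 for *Kcnj9*, -0.11 to 0.092 for *Cacng3*, -0.38 to 0.043 for *Kcna1* and -0.13 to 0.25 for *Kcnc4*.

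In WT microglia, tau called 1 channel gene higher beyond a log2 fold change of 1 with the replicate block and 1 without the filter, in place of 2. HT-DNA called 2 higher with DESeq2 and 4 higher and 2 lower without the filter. Shares over all genes were not worked out for these settings or for left-out libraries, so these counts cannot be set against all genes. Without a minimum fold, 5 were lower with tau, 9 with HT-DNA, and in *Cgas*-/- cells 2 with tau and 1 with HT-DNA. Left-out libraries gave 0 to 2 rises with tau, 1 to 3 rises (2 or 3 without any 1 of 16 of the 18 libraries) and 0 to 2 falls with HT-DNA, and 1 to 3 higher genes in *Cgas*-/- vehicle cells. Values that turned ran from -0.028 to 0.11 for *Kcnk6* and -0.36 to 0.087 for *Cacnb3* with HT-DNA, and from -0.36 to 0.086 for *Cacnb3* and -0.36 to 0.22 for *Kcnd1* with tau. The call of *Kcna3* with HT-DNA was lost with DESeq2 (adjusted p = 0.124), RLE scaling (0.0991) and no filter (0.0685) and without WT HT-DNA library 1 or 3, WT vehicle library 1 or 2, WT tau library 1 or *Cgas*-/- HT-DNA library 1 (0.0919 to 0.141). The replicate block moved the adjusted p of *Kcnab1* with tau to 0.0515. No source says that numbers mark shared cultures, so the block is not a known pairing. Over 45 same-numbered pairs the deviations from group means correlated at -0.085 to 0.0823. With groups of 3 libraries, these correlations cannot settle whether cultures were shared. The causes were not tested.

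With 6 and 7 mice, genes of under 1 normalized CPM, such as *Cacna1s*, and microglial genes of under 20 counts are limited by depth.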
